A study of Homo sapiens with 21 samples.

Results

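The cholesterol synthesis genes and their SREBP regulators were followed in 21 A549 xenograft tumors as 29 genes, out of 60651 genes in the count table. The set was fixed by name: enzymes of the mevalonate and sterol pathway, the proteins that control SREBP processing, and sterol handling proteins. All 29 genes were found by symbol, and all 29 passed the filter on low counts. The tumors came from A549-Luc2 cells, a luciferase-bearing derivative of the A549 human lung adenocarcinoma line, grown with Matrigel under the skin of female athymic nu/nu mice aged 6 to 8 weeks. Mice were randomized, 10 to a group, at a mean tumor size of 80 to 100 mm3. The control group received the dosing vehicle alone, and the other groups received the oxysterols Oxy186 or Oxy210 daily by mouth at 50 mg/kg. RNA-seq covered 7 tumors of each group, and nude mice still have stroma, vessels and innate immune cells that enter a tumor. All the tumors share a single parental cell line, so the replicates are separate tumors and not separate cancers.

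Cells make cholesterol from acetyl-CoA through mevalonate, isoprenoid diphosphates, squalene and lanosterol. The SREBP transcription factors raise these enzymes together: SREBP precursors sit in the ER membrane with the escort protein SCAP, and when sterols are low SCAP carries them to the Golgi, where proteases release the active factor. INSIG proteins hold SCAP in the ER when sterols are plentiful, many natural oxysterols bind INSIG, and INSIG1 is itself a SREBP target.

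By role the genes comprised 5 of the mevalonate steps (ACAT2, HMGCS1, MVK, PMVK, MVD), 3 of the isoprenoid steps (IDI1, FDPS, GGPS1), 3 that make and cyclize squalene (FDFT1, SQLE, LSS) and 9 that remodel the sterol nucleus (CYP51A1, TM7SF2, LBR, MSMO1, NSDHL, HSD17B7, EBP, SC5D, DHCR7). These 20 enzymes are called the synthesis enzymes here. The others were 7 regulators (SREBF1, SREBF2, SCAP, INSIG1, INSIG2, MBTPS1, MBTPS2) and 2 sterol handling proteins (STARD4, TMEM97).

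Sequencing depth, as the sum of human gene counts in a tumor, lay between 13787493 and 17865119 and overlapped between groups. The A549 marker list (8 genes, among them KRT8, KRT18 and ALDH1A1) summed to 16330 to 28960 TPM (counts scaled by exon length and to the same total in each library) across all tumors. The list of 12 stroma, vessel and immune markers summed to 118.4 to 228.2 TPM in control tumors, 112.4 to 265.2 TPM in Oxy186 tumors and 74.72 to 148.6 TPM in Oxy210 tumors. LUM had the most, with a median of 109.3 TPM and a range of 44.1 to 241.5, and VWF and COL1A2 never passed 0.0387 TPM. In GENCODE 44, a later release than the one the study counted with, same-strand neighbours of 4 members cover over 10% of their exon bases. Other-strand neighbours do so for 5. Whether reads were counted by strand is not given in the sources used here, so counts of these genes are uncertain.

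RefSeq promoter windows, from 250 bases before to 50 after the transcription start on GRCh38.p14, were on hand for 26 of the 29 genes. In these windows the sterol response element, spelled TCACNCCAC and searched on both strands, occurred only in SREBF2, which is 3.85% of the member windows against 1.15% of all 27305 windows of the same length. The NF-Y box CCAAT, the partner element of SREBP sites, stood in 16 member windows, or 61.5% against 35.7% of all. It was found in 12 of 17 synthesis enzymes, in both sterol handling genes and in 2 of 7 regulators, SREBF2 and INSIG1. These counts use the start listed first for each gene. Among enzymes counted as without the box, IDI1 held 3 and 2 boxes at its other listed starts, and GGPS1 held 1 at a later start. GC boxes (GGGCGG) were found in 80.8% of member windows against 44.6% of all, and E-boxes (CACGTG) in 15.4% against 7.43%. A match is a run of letters and was not tested as a binding site. Shown here are 4 windows whose genes the results turn on, in gene direction and with the sterol element and NF-Y boxes of either strand in capitals. SREBF2 (chr22:41832855-41833154, plus strand) holds both elements, MSMO1 (chr4:165327419-165327718, plus strand) holds 4 NF-Y boxes and follows the other enzymes most closely across tumors, INSIG1 (chr7:155297628-155297927, plus strand) holds 1, and INSIG2 (chr2:118088221-118088520, plus strand) holds neither.
SREBF2: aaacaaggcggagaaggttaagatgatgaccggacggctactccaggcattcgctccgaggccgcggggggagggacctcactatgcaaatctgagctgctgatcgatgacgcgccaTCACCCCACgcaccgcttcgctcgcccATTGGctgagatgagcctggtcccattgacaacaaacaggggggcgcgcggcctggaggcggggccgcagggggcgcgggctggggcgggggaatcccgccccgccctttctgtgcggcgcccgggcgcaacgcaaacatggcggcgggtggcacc
MSMO1: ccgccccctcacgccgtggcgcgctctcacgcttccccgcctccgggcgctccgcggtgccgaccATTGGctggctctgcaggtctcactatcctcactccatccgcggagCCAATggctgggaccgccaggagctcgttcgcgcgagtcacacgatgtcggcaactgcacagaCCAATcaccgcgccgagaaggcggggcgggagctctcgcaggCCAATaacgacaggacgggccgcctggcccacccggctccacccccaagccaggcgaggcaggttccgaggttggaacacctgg
INSIG1: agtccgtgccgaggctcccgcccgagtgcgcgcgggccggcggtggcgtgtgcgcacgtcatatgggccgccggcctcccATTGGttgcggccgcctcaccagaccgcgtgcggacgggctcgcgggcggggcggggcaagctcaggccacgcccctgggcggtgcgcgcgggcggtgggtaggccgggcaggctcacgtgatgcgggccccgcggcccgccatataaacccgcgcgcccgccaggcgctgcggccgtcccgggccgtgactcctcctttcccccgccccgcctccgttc
INSIG2: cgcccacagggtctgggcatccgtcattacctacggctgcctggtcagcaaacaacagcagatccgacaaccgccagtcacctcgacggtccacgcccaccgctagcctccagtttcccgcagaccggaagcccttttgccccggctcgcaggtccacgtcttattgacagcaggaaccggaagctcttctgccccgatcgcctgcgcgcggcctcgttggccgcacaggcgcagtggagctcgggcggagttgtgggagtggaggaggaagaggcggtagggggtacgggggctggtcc

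The pathway was expressed at unequal levels per length. In control tumors the highest members were TMEM97, a sterol-responsive ER membrane protein, at 147.2 ± 38.5 TPM (SD, n = 7), FDFT1, squalene synthase, at 84.7 ± 17.0 TPM, and PMVK, phosphomevalonate kinase, at 75.8 ± 8.88 TPM. The lowest were CYP51A1, lanosterol demethylase, at 0.931 ± 0.266 TPM, SC5D, a sterol desaturase, at 9.37 ± 2.24 TPM, and MVK, mevalonate kinase, at 11.7 ± 2.17 TPM. This order depends on the annotated exon length, which was 1002 bases for PMVK, 9018 for MVK and 10054 for SC5D. By mean log2 CPM, which ignores length, MVK (5.07) and SC5D (4.90) stood above PMVK (4.61) in control tumors. LSS, which acts just before CYP51A1, stood at 17.9 ± 1.91 TPM, and the reductases that act just after it, TM7SF2 and LBR, at 14.1 ± 2.95 and 69.5 ± 16.8 TPM. In GENCODE 44, CYP51A1 shares 68.2% of its exon bases with other genes on its strand, so this low level is the least certain of the set. The study counted with an earlier release, so the overlap in its counting can differ. A same-strand gene that overlaps CYP51A1 in GENCODE 44 was not among the counted genes. A read-through gene over CYP51A1, AC000120.2, was listed at 0 counts in every tumor. How reads on shared bases were assigned is not given in the sources used here. That 0 therefore does not show whether AC000120.2 is expressed or whether CYP51A1 lost reads. The TPM of CYP51A1 still divides by all 4171 of its exon bases.

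CYP51A1 (GRCh38 chr7:92084987-92134803, minus strand) showed the widest spread of any member, and its counts split the Oxy186 tumors. It had 12 to 24 counts in control tumors and 17 to 54 in Oxy210 tumors. In the Oxy186 group it had 5, 1, 2 and 2 counts in samples r1 to r4 and 40, 28 and 69 counts in r5 to r7. Samples r1 to r4 therefore lay below every other tumor and r5 to r7 above every control, and no group value describes them: the mean of log2 CPM was lower in Oxy186 tumors (-0.35 against 0.42) while the fold change fitted to the counts was above 0 (0.21, 95% interval -1.20 to 1.63).

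The level of a member in a library went with the GC content of its exons. For each library, a GC slope was fitted as the change of log2 CPM per 10 points of exon GC content relative to the mean of each gene, using genes that averaged 1 log2 CPM or more. Slopes ran from -0.15 to 0.40 in control tumors, -0.33 to 0.26 in Oxy210 tumors, -0.51 to -0.18 in Oxy186 samples r1 to r4 and 0.079 to 0.49 in Oxy186 r5 to r7. Mean slopes of the groups did not separate by an exact two-sided permutation test (p = 0.166 for Oxy186 and p = 0.157 for Oxy210 against control, p = 0.642 between the compounds, smallest possible p = 0.000583). Exon GC content of the members ran from 34.6% in STARD4 to 63.0% in MVD, and 11 members had a correlation with the library slope of 0.5 or more and 3 of -0.5 or less. SCAP (r = 0.946, 21 tumors), TM7SF2 (r = 0.926), SREBF1 (r = 0.923), LSS (r = 0.923) and MVD (r = 0.919) followed the slope most closely, while SC5D (r = -0.869) and MBTPS2 (r = -0.739), both of low GC content, went the other way. These correlations describe the libraries, since the same counts enter slope and level. Each comparison was therefore also fitted with the GC trend of every library as an offset. These offsets turned the sign of 9 members for Oxy186 against control (SQLE, MSMO1 and INSIG1 among them), of 5 for Oxy210 against control and of 4 between the compounds (HMGCS1 and LBR among them). Over all genes the offsets also lowered the share above 0, from 48.9% to 35.1% for Oxy186 against control. Turned signs over all genes were not counted. Values with offsets are given for the members the comparisons turn on.

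**Figure D1:**
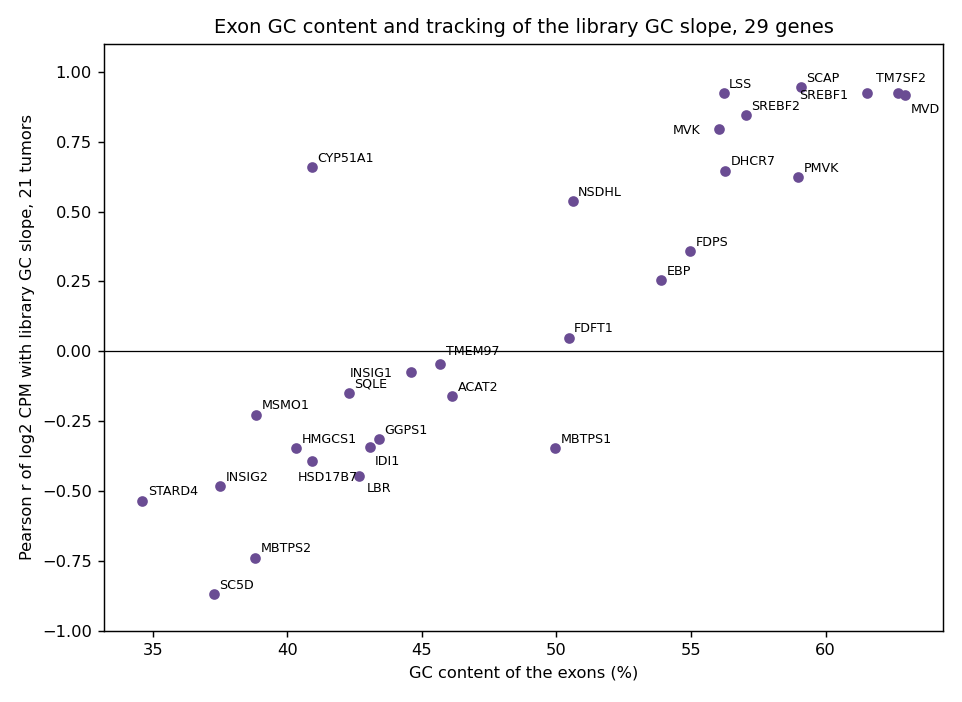
Exon GC content in percent (x axis) of each of the 29 genes against the Pearson r of its log2 CPM with the library GC slope over 21 tumors (y axis). Points rise from SC5D at r = -0.869 to SCAP at r = 0.946, and CYP51A1, at 40.9% GC and r = 0.660, stands off the trend.

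Between Oxy186 and control tumors, no member of the pathway passed the test. The question was whether an oxysterol given by mouth moved sterol synthesis in the tumor cells. With edgeR's quasi-likelihood test and Benjamini-Hochberg adjustment over 16291 genes, 0 of 29 members were called at an adjusted p of 0.05, against 0% of all genes, and 0 had an unadjusted p under 0.05, against 3.79% of all genes (1.44% higher and 2.36% lower). DESeq2 called 0 members in this and each of the other comparisons, against 0% of all genes in this one. Over all genes DESeq2 called 92 (0.561%) for Oxy210 against control and 3 (0.0438%) between the compounds. Log2 fold changes ran from -0.53 to 0.32 with a median of 0.08, beside -0.0067 over all genes, and 20 were above 0 and 9 below. With GC offsets the median was -0.04 beside -0.06 over all genes, and 11 were above 0 and 18 below. The balance of signs thus turned with that choice. Over all genes the share above 0 fell from 48.9% to 35.1%, so the shift was not particular to the members. The 95% intervals lay within a 2-fold change for 25 members, all but MVD, CYP51A1, TM7SF2 and SREBF1, and within 1.5-fold for 15.

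No difference was detected in the early and middle enzymes. HMGCS1, which makes HMG-CoA, had a log2 CPM of 5.72, 6.23 and 6.99 in control tumors (lowest, median, highest) and 6.11, 6.56 and 7.04 in Oxy186 tumors, a difference of 0.17 (95% interval -0.25 to 0.59, and 0.03 with GC offsets). IDI1, the isopentenyl diphosphate isomerase, had 5.34, 6.13 and 6.59 against 5.77, 6.28 and 6.91 (0.23, -0.22 to 0.68, and 0.07 with GC offsets). SQLE, the rate-limiting squalene epoxidase, had 5.83, 6.46 and 6.95 against 5.53, 6.69 and 7.11 (0.09, -0.38 to 0.57, and -0.05 with GC offsets). In all of them the groups overlapped over most of their range, and for SQLE 1 Oxy186 tumor lay below every control and 2 above. LSS, lanosterol synthase, had 5.11, 5.42 and 5.75 in control tumors and 4.31, 5.03 and 6.09 in Oxy186 tumors (-0.20, -0.73 to 0.34). For LSS, 5 Oxy186 tumors lay below the lowest control and 2 above the highest, so the Oxy186 group straddled the controls.

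Nor was a difference detected in the late enzymes. Of the sterol reductases, TM7SF2 had 3.49, 3.81 and 4.45 log2 CPM in control tumors and 2.06, 3.40 and 4.25 in Oxy186 tumors (-0.47, -1.09 to 0.15, unadjusted p = 0.130). LBR, which carries the same reductase activity and also anchors chromatin at the nuclear envelope, had 6.59, 6.93 and 7.36 against 6.67, 7.13 and 7.47 (0.15, -0.17 to 0.48). DHCR7, a terminal reductase, had 4.91, 6.01 and 6.23 against 4.69, 5.20 and 6.42 (-0.26, -0.83 to 0.31). TM7SF2 has 62.7% GC and LBR 42.7%, and with GC offsets the TM7SF2 difference was -0.18 and that of LBR 0.01.

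The smallest unadjusted p-values of this comparison were those of SREBF2, SREBF1 and TM7SF2. SREBF1 (GRCh38 chr17:17810399-17837002, minus strand) had 7.02, 7.47 and 8.13 log2 CPM in control tumors and 5.71, 6.49 and 8.29 in Oxy186 tumors, a difference of -0.53 ± 0.33 (SE, unadjusted p = 0.126, adjusted p = 0.862 with edgeR). SREBF2 had 6.23, 6.70 and 7.07 against 5.66, 6.05 and 7.13, a difference of -0.36 ± 0.22 (unadjusted p = 0.124). In each case 4 Oxy186 tumors were below the lowest control and 1 was above the highest. SCAP had 5.35, 5.85 and 6.18 against 4.70, 5.44 and 6.39 (-0.34, -0.81 to 0.13, and -0.17 with GC offsets). INSIG1 had 5.02, 5.54 and 5.73 against 4.61, 5.52 and 6.09 (0.09, -0.33 to 0.50, and -0.04 with GC offsets), and INSIG2, the less sterol-regulated INSIG, 4.75, 5.06 and 5.46 against 4.52, 5.02 and 5.27 (-0.14, -0.46 to 0.17). For INSIG1, 3 Oxy186 tumors exceeded every control and 1 was below every control. With GC offsets 3 members had an unadjusted p under 0.05 in edgeR, namely PMVK higher (0.42, unadjusted p = 0.00469) and INSIG2 (-0.33, unadjusted p = 0.0164) and SREBF1 (-0.35, unadjusted p = 0.05 after rounding) lower. That is 10.3% of members against 6.58% of all genes (1.62% higher and 4.96% lower), and edgeR called none after adjustment.

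Between Oxy210 and control tumors, 0 of 29 members were called either, against 0% of 16396 genes. INSIG1, SREBF1 and MVK were lower at an unadjusted p under 0.05, which is 3 of 29 members or 10.3%, against 8.12% of all genes lower and 13.8% of all genes in either direction. This share is near that of all genes and is not a result about the members. Log2 fold changes ran from -0.50 to 0.56 with a median of -0.05, beside 0.0086 over all genes, with 9 above 0 and 20 below. With GC offsets these were 6 and 23, with a median of -0.126 beside -0.0135 over all genes. With library size alone they were 14 and 15, with a median of -0.00418, in a fit where the median over all genes was 0.0592. Over all genes 51.3% lay above 0 in the main fit and 47.5% with GC offsets. The intervals were within 2-fold for 28 members, all but CYP51A1, and within 1.5-fold for 19.

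INSIG1 (GRCh38 chr7:155297776-155310235, plus strand) had the smallest p of the members. It had 5.02, 5.54 and 5.73 log2 CPM in control tumors and 4.34, 5.10 and 5.33 in Oxy210 tumors, a difference of -0.45 ± 0.14 (SE, 95% interval -0.74 to -0.15, unadjusted p = 0.00504, adjusted p = 0.270 with edgeR). Of the controls, 6 of 7 were above every Oxy210 tumor, and the exception, Control r3, lay inside the Oxy210 range. With GC offsets the difference was -0.52 (unadjusted p = 0.00137, adjusted p = 0.157). SREBF1 had 6.60, 7.00 and 7.46 in Oxy210 tumors, a difference of -0.49 ± 0.16 (unadjusted p = 0.00762, adjusted p = 0.271 with edgeR), and 4 Oxy210 tumors were below every control. With GC offsets this was -0.26 (unadjusted p = 0.0339). MVK had 4.32, 5.15 and 5.50 in control tumors and 3.92, 4.35 and 5.16 in Oxy210 tumors, a difference of -0.50 ± 0.21 (unadjusted p = 0.0257, adjusted p = 0.318 with edgeR), and 3 Oxy210 tumors were below every control.

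For the other enzymes named here the intervals held 0. HMGCS1 was 5.94, 6.59 and 7.11 log2 CPM in Oxy210 tumors (0.19, -0.20 to 0.59), IDI1 5.44, 6.17 and 6.27 (-0.04, -0.40 to 0.32) and SQLE 5.53, 6.47 and 6.69 (-0.05, -0.42 to 0.31). LSS was 4.69, 4.95 and 5.64 (-0.23, -0.54 to 0.09), DHCR7 4.47, 5.37 and 6.11 (-0.42, -0.89 to 0.04), TM7SF2 2.89, 3.39 and 4.09 (-0.32, -0.74 to 0.10) and LBR 6.66, 7.06 and 7.38 (0.14, -0.13 to 0.42). Of the other regulators, SREBF2 was 5.69, 6.54 and 7.02 (-0.20, -0.56 to 0.15), SCAP 4.93, 5.55 and 6.10 (-0.27, -0.59 to 0.04) and INSIG2 4.41, 4.90 and 5.32 (-0.19, -0.52 to 0.13). INSIG2 was lower with GC offsets (-0.37, unadjusted p = 0.0077), as was EBP (-0.37, unadjusted p = 0.0475), so 5 members had an unadjusted p under 0.05 in that fit, or 17.2% against 14.5% of all genes (5.99% higher and 8.5% lower). CYP51A1 was 0.23, 0.69 and 1.91 against -0.045, 0.33 and 0.85 in control tumors (0.56, -0.02 to 1.15), the largest member difference and from the fewest counts.

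**Figure D2:**
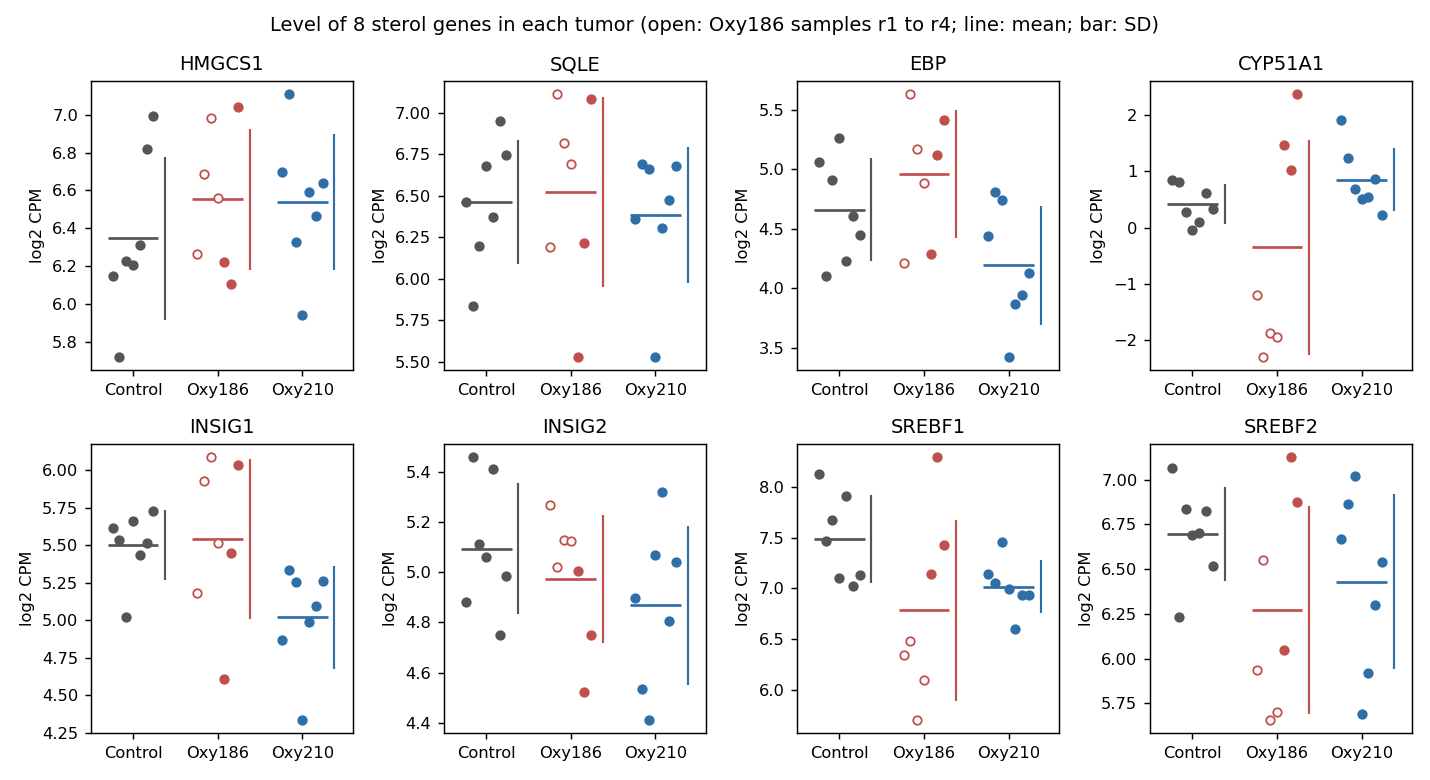
Log2 CPM (y axis) of 8 genes in each tumor by group (x axis), with a line for the group mean, a bar for the SD over 7 tumors, and open circles for Oxy186 samples r1 to r4. The open circles lie at 5.71 to 6.49 for SREBF1 and at or below -1.20 for CYP51A1, below every control, while all INSIG1 values of the Oxy210 tumors are at or below 5.33.

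The 2 oxysterols were given at the same dose, so they were also compared with each other, for 29 genes in 1 contrast. No member was called (0 of 29, against 0% of 16361 genes). EBP and INSIG1 were higher in Oxy186 than in Oxy210 tumors at an unadjusted p under 0.05, or 6.90% of members against 3.14% of all genes higher, 0.917% lower and 4.06% in either direction. The members' differences had a median of 0.09, beside -0.0068 over all genes, with 22 above 0 and 7 below, or 18 and 11 with GC offsets. Over all genes 48.5% lay above 0, or 43.2% with GC offsets. EBP (GRCh38 chrX:48521799-48528716, plus strand), the isomerase that shifts a double bond of the sterol nucleus, had 4.21, 5.12 and 5.63 log2 CPM in Oxy186 tumors and 3.42, 4.13 and 4.81 in Oxy210 tumors. The difference was 0.77 ± 0.25 (SE, 95% interval 0.26 to 1.29, unadjusted p = 0.00567, adjusted p = 1 with edgeR, and 0.481 with GC offsets), and 5 Oxy186 tumors were above every Oxy210 tumor. In GENCODE 44, EBP shares 36.4% of its exon bases with other genes on its strand, so its counts are among the uncertain ones. The EBP level of control tumors, 4.11, 4.60 and 5.27, lay between. INSIG1 differed by 0.56 ± 0.21 (95% interval 0.12 to 1.00, unadjusted p = 0.0157, adjusted p = 1 with edgeR), with 5 Oxy186 tumors above every Oxy210 tumor. FDFT1 came next, at 6.54, 7.15 and 7.62 in Oxy186 tumors and 6.30, 6.78 and 7.25 in Oxy210 tumors (0.34, -0.04 to 0.72, unadjusted p = 0.0731).

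For the other named members the compounds were not told apart. The difference was 0.0066 for HMGCS1 (-0.37 to 0.39, and -0.04 with GC offsets), 0.30 for IDI1 (-0.09 to 0.69), 0.17 for SQLE (-0.30 to 0.65), 0.05 for LSS (-0.52 to 0.63), 0.18 for DHCR7 (-0.45 to 0.81), -0.12 for TM7SF2 (-0.78 to 0.53) and 0.04 for LBR (-0.27 to 0.34, and -0.01 with GC offsets). It was -0.01 for SREBF1 (-0.66 to 0.64), -0.13 for SREBF2 (-0.65 to 0.40), -0.04 for SCAP (-0.54 to 0.46), 0.08 for INSIG2 (-0.25 to 0.41) and -0.33 for CYP51A1 (-1.74 to 1.09). Over the 29 members, 26 intervals were within 2-fold and 12 within 1.5-fold, so modest differences between the compounds could not be seen at this number of tumors. Both comparisons with control use the same 7 control tumors. PMVK was also higher in Oxy186 tumors with GC offsets (0.41, unadjusted p = 0.00705), for 3 members or 10.3% against 7.53% of all genes (4.06% higher and 3.47% lower). In that fit 0 members were called by edgeR, against 1 gene or 0.00611% of all genes.

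**Figure D3:**
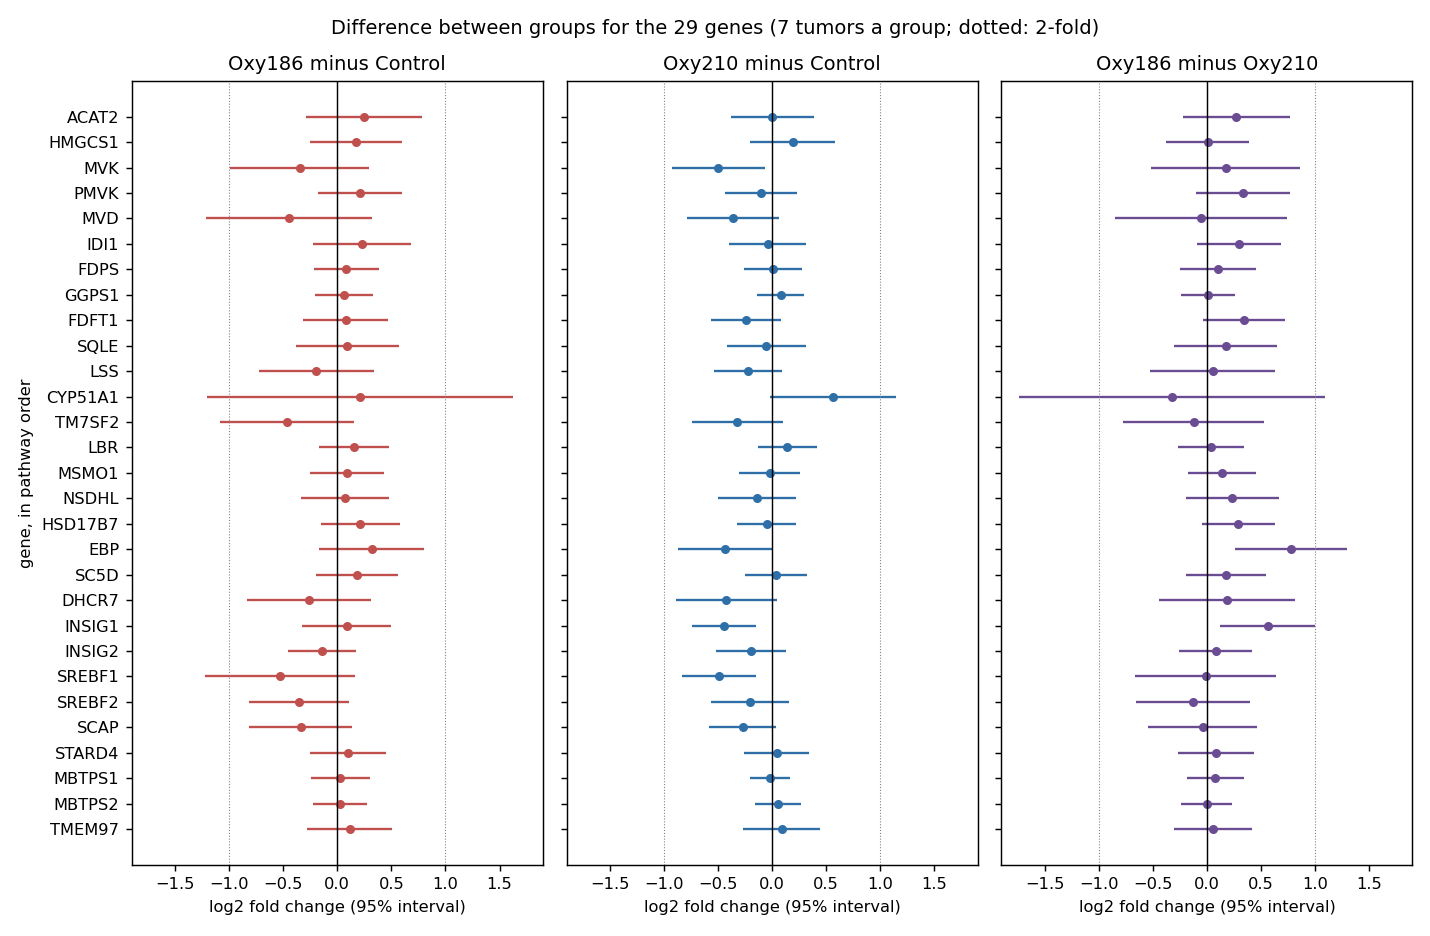
Log2 fold change (x axis) with its 95% interval for the 29 genes in pathway order (y axis), in 3 panels, from 7 tumors a group with edgeR. Most intervals cross 0 and stay inside the dotted 2-fold lines. Those that clear 0 are MVK, INSIG1 and SREBF1 for Oxy210 and EBP and INSIG1 between the compounds.

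The Oxy186 group was not uniform for these genes. The study carried samples r1 to r4 forward after seeing the expression data, so values of this subset are a description of chosen tumors and no independent evidence of a treatment effect. Against control, 9 members were called by edgeR with r1 to r4 alone (adjusted p of 0.05 or less, 8 lower and 1 higher), against 19.7% of 16852 genes. The lower members were CYP51A1 (-2.86), MVD (-1.41), SREBF1 (-1.36), TM7SF2 (-1.16), MVK (-0.91), LSS (-0.79), SCAP (-0.74) and SREBF2 (-0.71), and SC5D was higher (0.48). Except CYP51A1 the lower members have exon GC content of 56.05% to 62.96%, and SC5D has 37.3%. With GC offsets 4 members were called, against 5% of genes, namely CYP51A1 (-3.21), SREBF1 (-0.60) and LSS (-0.49) lower and PMVK (0.54) higher, in a fit where the median of all genes was -0.11. With r5 to r7 alone 0 members were called by edgeR, against 0% of 17342 genes, or 0.00577% with GC offsets, and SREBF1 (0.15), SREBF2 (0.02) and TM7SF2 (0.13) were on the other side of 0.

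After removal of the GC trend, r1 to r4 lay below every control for SREBF1 and CYP51A1 (2 of 29 members, against 4.56% of 16990 genes below and 0.93% above). SREBF1 spanned 6.50 to 6.83 log2 CPM in r1 to r4, 6.99 to 7.63 in r5 to r7 and 6.86 to 7.76 in control tumors on that scale. Before removal 5 members lay below every control (MVD, LSS, CYP51A1, TM7SF2 and SREBF1) and none above, against 8.4% of genes below and 3.2% above. Against Oxy210 tumors, r5 to r7 gave 0 called members with edgeR (0.167% of genes, or 0.184% with GC offsets), and r1 to r4 gave 6 called members against 11.1% of genes, and 2 with GC offsets against 6.09% of genes (CYP51A1 at -3.65 and EBP at 0.89). Of the members in that fit without offsets, INSIG1 (0.67), HSD17B7 (0.50) and SC5D (0.46) were higher, and CYP51A1 (-3.40), MVD (-1.03) and SREBF1 (-0.85) lower.

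Within groups, the synthesis enzymes went up and down together from tumor to tumor. With group means removed, the 190 pairs among the 20 synthesis enzymes had a median Pearson r of 0.493 over 21 tumors, and 0.648 with the GC trend of each library removed. The median over all pairs of 16990 tested genes was -0.00125, or 0.0312 with the GC trend removed. Of the 190 pairs, 152 had an r above 0, and 182 with the trend removed, of which 132 were above 0.5. The median within each group was 0.71 in control, 0.63 in Oxy186 and 0.78 in Oxy210 tumors (7 each, trend removed) and 0.75 over the 17 tumors without Oxy186 r1 to r4. All pairs share the libraries and their scaling, and these values are given as a description with no test. The strongest pairs with the trend removed were SQLE with DHCR7 (0.955), HMGCS1 with LBR (0.952), MVK with MVD (0.946) and ACAT2 with FDFT1 (0.928).

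Individual members joined this pattern to different degrees. The median r of a gene with the synthesis enzymes (trend removed) was highest for MSMO1 (0.804), ACAT2 (0.771) and IDI1 (0.770). TMEM97 (0.754), INSIG1 (0.668) and SREBF2 (0.661) were above the median of the enzyme pairs. Away from them stood CYP51A1 (0.106), SREBF1 (-0.087), MBTPS1 (-0.189), a Golgi protease that cuts SREBP, and INSIG2 (-0.368). The regulators thus did not move as a unit: the 9 regulators and handling genes had a median pairwise r of 0.181, or -0.00535 before removal of the trend. In this median r with the enzymes INSIG1 and INSIG2 had opposite signs, as had SREBF2 and SREBF1, and these differences were not tested. The SREBF1 value was near 0, and within Oxy186 tumors it was 0.152. SREBF1 and SREBF2 themselves correlated positively with each other (0.246, or 0.716 before removal of the trend). TM7SF2 (0.439), unlike its fellow reductase LBR (0.737), was less tightly tied to the set.

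**Figure D4:**
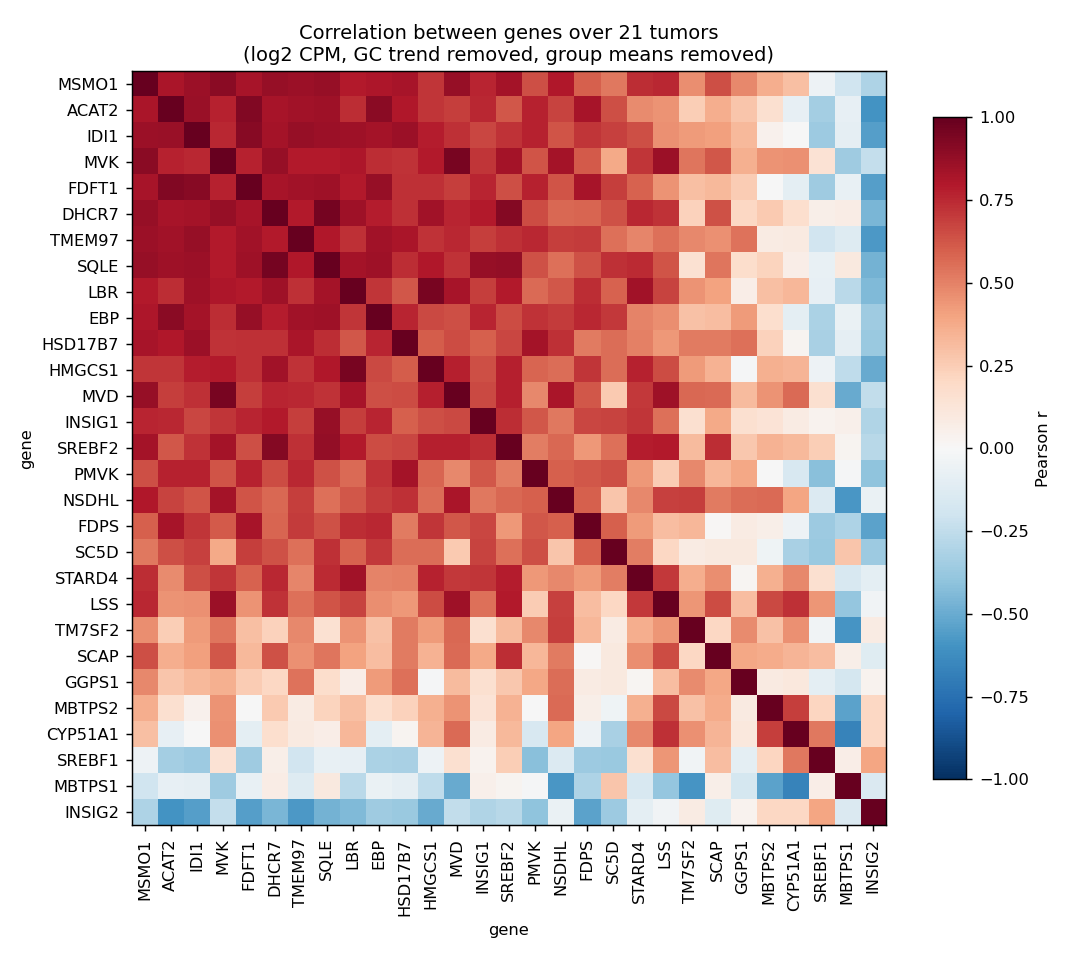
Pearson r between all 29 genes over 21 tumors (color, from -1 to 1), computed on log2 CPM with the GC trend and the group means removed, with genes ordered by their median r with the synthesis enzymes. A block of positive values runs from MSMO1 to STARD4, and INSIG2, MBTPS1 and SREBF1 at the end are pale or blue against it.

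The tumors could be ranked by this shared level. The median deviation of the 20 enzymes from their mean over all tumors (log2, trend removed) ran from -0.462 in Oxy210 r4 to 0.539 in Oxy186 r7, and the same tumors were the extremes without that correction (-0.503 and 0.484). In Oxy210 r4 only 1 of 20 enzymes was above its mean, and in Oxy210 r2 all 20 were. Each group held tumors on both sides: control tumors ran from -0.378 to 0.347, Oxy186 tumors from -0.361 to 0.539 and Oxy210 tumors from -0.462 to 0.262. This spread inside groups is wider than the median differences between them.

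INSIG1 was tested against 6 enzymes, a choice made because it is a SREBP target in many cells. Over 21 tumors with group means removed and 100000 two-sided permutations within groups, INSIG1 rose with SQLE (Pearson r = 0.862, permutation p = 0.00013, adjusted over 6 relations 0.00063, Spearman rho = 0.860, permutation p = 4e-05, adjusted 0.00024). It also rose with MSMO1 (r = 0.764, permutation p = 0.00021, adjusted 0.00063, rho = 0.770, permutation p = 0.00031, adjusted 0.00072). The values for IDI1 were r = 0.665 (permutation p = 0.00178, adjusted 0.00356) and rho = 0.757 (permutation p = 0.00036, adjusted 0.00072). For HMGCS1 they were r = 0.607 (permutation p = 0.00366, adjusted 0.00549) and rho = 0.579 (permutation p = 0.0104, adjusted 0.0156). LSS (r = 0.150, permutation p = 0.638, adjusted 0.638, rho = 0.130, permutation p = 0.631, adjusted 0.631) and CYP51A1 (r = -0.201, permutation p = 0.564, adjusted 0.638, rho = -0.174, permutation p = 0.545, adjusted 0.631) did not pass. With the GC trend removed, LSS had r = 0.551 (adjusted permutation p = 0.0588) and rho = 0.560 (adjusted permutation p = 0.0364), so it passed by rank only.

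Oxy186 r5 and Oxy210 r4 were farthest from the median INSIG1 level. Without them the relation held for SQLE (r = 0.700, adjusted permutation p = 0.0289) and MSMO1 (r = 0.670, adjusted permutation p = 0.0289), and no longer passed for HMGCS1 (r = 0.515, adjusted permutation p = 0.0742) and IDI1 (r = 0.531, adjusted permutation p = 0.0742) by Pearson r. By Spearman rho, without them, IDI1 passed (0.768, adjusted permutation p = 0.00534) and HMGCS1 did not (0.518, adjusted permutation p = 0.0576). With the GC trend also removed both passed by Pearson r (IDI1 at 0.536, adjusted permutation p = 0.0416, and HMGCS1 at 0.575, adjusted permutation p = 0.0355). Within groups (7 tumors each, no test) r with SQLE was 0.415 in control, 0.949 in Oxy186 and 0.984 in Oxy210 tumors, and r with HMGCS1 was 0.238, 0.824 and 0.719. The difference in these relations between groups was not tested.

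**Figure D5:**
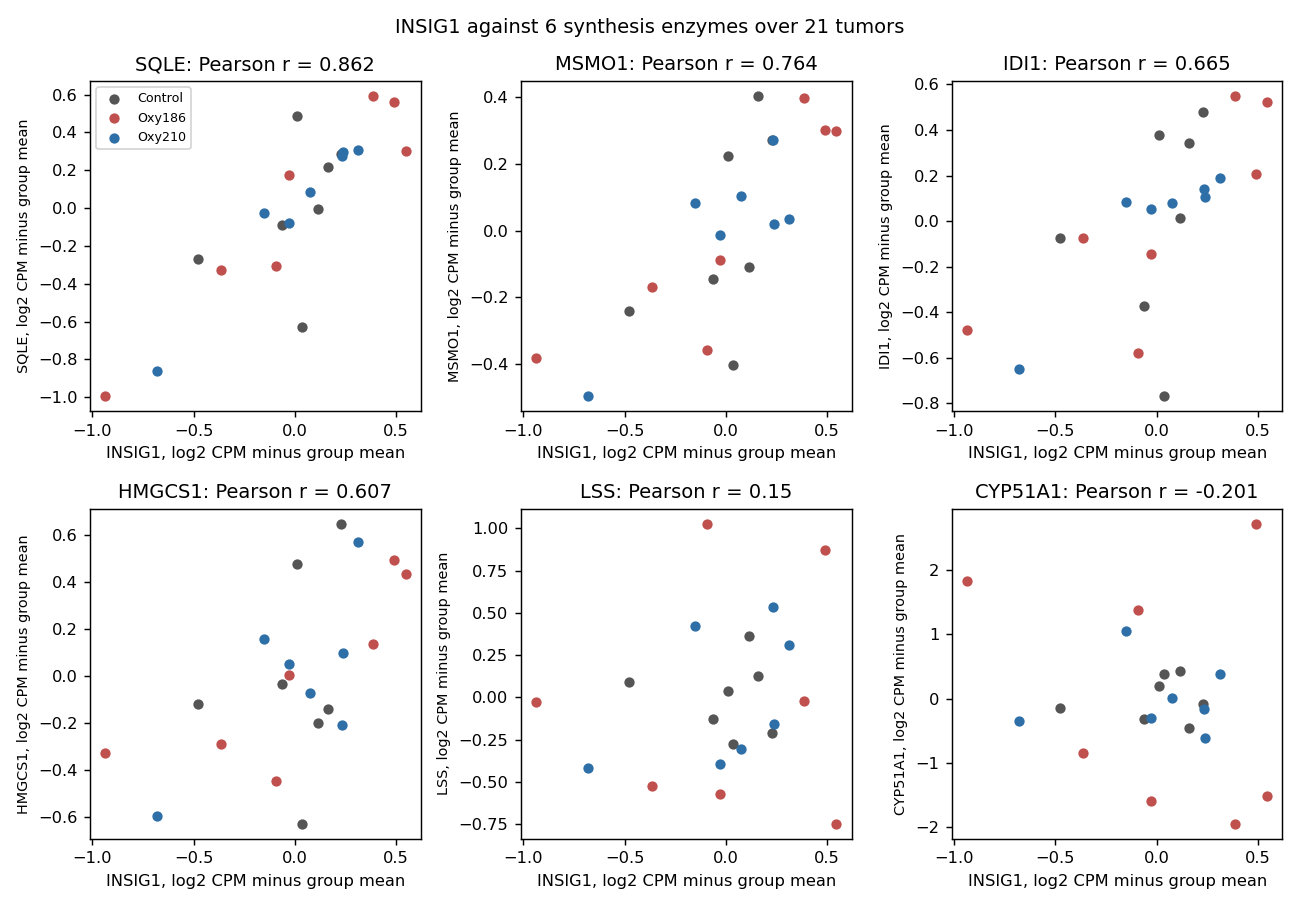
Log2 CPM minus the group mean of INSIG1 (x axis) against that of 6 enzymes (y axes) in 21 tumors, colored by group. SQLE (r = 0.862) and MSMO1 (r = 0.764) rise with INSIG1, while LSS (r = 0.150) and CYP51A1 (r = -0.201) scatter. The leftmost points are Oxy186 r5 and Oxy210 r4.

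The shared level of the enzymes also went with that of 10 proliferation genes and against that of 10 hypoxia genes. With trend and group means removed, the median r of an enzyme with the proliferation genes was above 0 for 20 of 20 enzymes (0.108 for CYP51A1 to 0.879 for ACAT2) and with the hypoxia genes below 0 for 20 of 20 (-0.728 for ACAT2 to -0.049 for CYP51A1). Without trend removal these counts were 18 and 19, and no share over all genes is given beside them. INSIG2 went the other way, at -0.672 with the proliferation genes and 0.552 with the hypoxia genes, as did SREBF1 at -0.317 and 0.388. The median deviation of each list per tumor was also taken, with the trend removed but group means kept. On that measure r was 0.818 between enzymes and proliferation genes and -0.651 between enzymes and hypoxia genes. It was -0.898 between the proliferation and hypoxia genes themselves (21 tumors, description). Hypoxia genes had a median log2 fold change of -0.401 in Oxy186 and -0.335 in Oxy210 tumors, with 0 of 10 called in either. Their part in the member values was not tested.

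The genes around the pathway were equally without calls. In each of the 3 comparisons 0 genes of any list were called by edgeR after adjustment: 15 genes of the other isoprenoid branches, 11 of sterol-dependent ER degradation, 10 SREBP targets of fatty acid synthesis, 8 LXR targets and receptors and 10 of sterol storage and transfer, of which at most 9 passed the filter. In the ER degradation list, SYVN1, an ER ubiquitin ligase, was lower at an unadjusted p under 0.05 in Oxy186 (-0.64, unadjusted p = 0.0195) and Oxy210 tumors (-0.41, unadjusted p = 0.0414, or -0.25 with GC offsets). VCP, the segregase that extracts ubiquitinated ER proteins, was at -0.21 in Oxy210 (unadjusted p = 0.0495) and -0.18 in Oxy186 tumors (unadjusted p = 0.272). MYLIP, an LXR target that degrades lipoprotein receptors, was higher in both (0.49, unadjusted p = 0.0109, and 0.42, unadjusted p = 0.0241, with adjusted p of 0.862 and 0.312 by edgeR). NR1H2, which encodes an LXR receptor, was at -0.36 in Oxy210 (unadjusted p = 0.0327) and -0.51 in Oxy186 tumors (unadjusted p = 0.0758). The LXR list did not move as 1: of 8 genes, 3 were above 0 and 5 below for Oxy186, and 4 and 4 for Oxy210. Of its other targets, ABCA1 was at -0.09 for Oxy186 and 0.51 for Oxy210, and ABCG1 at -0.12 and -0.08. In the isoprenoid branches RABGGTA, a prenyltransferase subunit, was lower in both (-0.33, unadjusted p = 0.0474, or -0.02 with GC offsets, and -0.41, unadjusted p = 0.00414, or -0.21 with GC offsets). DHDDS, which acts in dolichol synthesis, was at -0.35 in Oxy210 (unadjusted p = 0.0201) and -0.33 in Oxy186 tumors (unadjusted p = 0.0594). OSBPL2, a sterol transfer protein, was at -0.38 in Oxy210 (unadjusted p = 0.021) and -0.21 in Oxy186 tumors (unadjusted p = 0.178). ACSL3, an acyl-CoA synthetase, was higher in Oxy186 than in Oxy210 tumors (0.28, unadjusted p = 0.0409). Of the 12 stroma, vessel and immune markers 6 could be tested, and in Oxy210 tumors DCN (-1.27, unadjusted p = 0.000785), LYZ (-0.90, unadjusted p = 0.00679) and LUM (-0.50, unadjusted p = 0.0301) were lower, while PECAM1 was at -0.07, COL1A1 at 0.13 and ACTA2 at 0.24. In Oxy186 tumors all 6 were below 0, with DCN at -0.84 (unadjusted p = 0.0565), LYZ at -0.49 (unadjusted p = 0.118) and LUM at -0.01. Only human alignments were kept, so reads of mouse host cells were largely removed before counting, and PTPRC, CD68, VWF and COL1A2 never passed 0.567 TPM. The hypoxia genes EGLN3 (-0.82, unadjusted p = 0.0247) and CA9 (-0.70, unadjusted p = 0.0447, and -0.45 with GC offsets) were also lower in Oxy210 tumors. In Oxy186 tumors EGLN3 was at -0.67 (unadjusted p = 0.0666) and CA9 at -0.66 (unadjusted p = 0.136). KRT18 of the A549 list was higher in Oxy186 than in Oxy210 tumors (0.45, unadjusted p = 0.0155). None of these passed an adjusted p of 0.05 with edgeR, and their part in the member values was not tested. The human cells grafted were A549-Luc2 cells alone. Fewer of these cells expressing a gene and less of its RNA per cell cannot be told apart in these bulk samples.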

How the data were processed

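RNA of 21 A549-Luc2 xenografts was measured by RNA-seq, 7 tumors each of the control, Oxy186 and Oxy210 groups, grouped by the sample titles. The authors trimmed reads (Trimmomatic 0.39), aligned them with STAR 2.7.6a to a combined human and mouse genome, kept human alignments and deposited raw counts of uniquely mapped reads per gene from featureCounts (Subread 2.0.1). They also deposited log2 CPM for the control group and Oxy186 r1 to r4. The deposited log2 CPM of 16852 genes were recomputed from the counts to within 4.97e-14. All sample columns were mapped to samples.

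Counts were tested with edgeR 4.0.16 in R 4.3.3 (filterByExpr, TMM, glmQLFTest, with a gene called at a Benjamini-Hochberg adjusted p of 0.05 or less), 7 against 7 tumors for each of the 3 pairs of groups. The study used limma voom, an alternative here (limma 3.58.1), beside DESeq2 1.42.0, other scalings and filters, GC offsets (natural spline, 4 degrees of freedom, genes with mean log2 CPM of at least 1), a replicate block and subsets of the Oxy186 tumors. The subsets combined with GC offsets, and the INSIG1 relations with the GC trend removed and without the 2 most distant tumors, were added after seeing the data. Levels are log2 CPM with a prior count of 2, or TPM computed from counts and GENCODE 44 exon lengths on GRCh38, the build of the files. Exon GC content and overlaps between genes came from the same annotation. The study counted with an earlier GENCODE release, so lengths and overlaps can differ from those behind the counts. Intervals are 95% from the SE and degrees of freedom of the fit. P-values measure the spread between these tumors. Even the closest tumors of a group differed beyond counting noise, with a chi-square per degree of freedom of at least 12.1, so each counted once. The tests were checked on simulated data.

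The 29 members and all gene lists were chosen with earlier results of these data known. All members are accounted for. Values are given for 13 members of fixed role, the 3 with the smallest unadjusted p per comparison, and the 3 highest and 3 lowest per length. Genes of other lists are named at an unadjusted p under 0.05, at most 3 a list and comparison, and some are not reported here. Promoters came from RefSeq (GRCh38.p14), with 26 of 29 symbols matched and the start listed first used for counts.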

Additional observations from a re-analysis of the deposited data

Results flagged for a closer look

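In 5 of 87 sets of 7 tumors (29 genes in 3 groups), the lowest or highest tumor stood farther from its neighbour than Dixon's 95% limit allows, where chance alone gives about 4.35, or 1 in 20. Of these, 3 are the same tumor, Oxy210 r4: IDI1 at 5.43 log2 CPM (next 6.14), SQLE at 5.53 (next 6.31) and MSMO1 at 5.36 (next 5.85). These genes rise and fall together, so the 3 values are not independent, and Oxy210 r4 also had the lowest median of the synthesis enzymes. DHCR7 was at 4.91 in Control r2 (next 5.79), and INSIG1 at 5.02 in Control r3 (next 5.44).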

How the results depend on the processing

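No member was called after adjustment in any of the 7 against 7 fits with another tool, scaling, filter, GC offsets or block. Over all genes these fits called few or none, at most 0.561% (92 genes, DESeq2, Oxy210 against control). In that comparison the share was 0.029% with no filter and 0.0122% with the replicate block. Beside such shares, 0 of 29 is not a result about the members. The main counts at an unadjusted p under 0.05 were 0 for Oxy186 against control, 3 for Oxy210 against control and 2 between the compounds. For Oxy186 against control the count was 2 with limma voom (7.35% of all genes), 3 with GC offsets (6.58%) and 2 with the replicate block and GC offsets (4.43%). For Oxy210 against control it was 6 with no filter (12% of all genes), 1 with all 21 libraries in one fit (8.53%), 5 with GC offsets (14.5%) and 7 with the replicate block (15.1%). Between the compounds it was 4 with the replicate block and GC offsets (8.94%). The sample titles number the replicates and state no pairing. Deviations of same-numbered tumors correlated at -0.398 to 0.329 for Oxy210 against control. The highest values were 0.0451 for Oxy186 against control and 0.114 between the compounds. Whether same-numbered tumors share a batch was not tested. With Oxy186 r1 to r4 alone, 9 members against control and 6 against Oxy210 were called (11 and 12 at an unadjusted p under 0.05, against 34.7% and 27.9% of all genes), and 4 and 2 with GC offsets added (10 and 6, against 20.9% and 22.6%). With r5 to r7 alone no member was called, with 2 and 6 at an unadjusted p under 0.05 (4.48% and 14.9% of all genes), or 2 and 4 with GC offsets (4.73% and 8.41%).

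Among the differences followed through every alternative, which are those of 16 named results, these signs turned. Over all 29 members, GC offsets turned 9, 5 and 4 signs in the 3 comparisons. For Oxy186 against control, INSIG1 was -0.0444 with GC offsets, -0.105 with the replicate block and GC offsets, -0.0529 with r5 to r7 and -0.0705 with r1 to r4 and GC offsets. INSIG2 was 0.0188 with r1 to r4. With r5 to r7, SREBF2 was 0.0236, SREBF1 0.145 and TM7SF2 0.132. Between the compounds with r5 to r7, INSIG2 was -0.149, SREBF1 0.647 and SREBF2 0.24, and with GC offsets SREBF1 was 0.226 and SREBF2 0.0112. The INSIG1 relation with CYP51A1 was 0.0835 with the GC trend removed, 0.239 without Oxy186 r1 to r4, 0.0134 without the 2 most distant tumors and 0.381 without them and with the trend removed. The relation with HMGCS1 no longer passed without Oxy186 r1 to r4 (0.545, adjusted permutation p = 0.0684) or without the 2 most distant tumors (0.515, adjusted permutation p = 0.0742), nor did that with IDI1 without the latter by Pearson r (0.531, adjusted permutation p = 0.0742), though it passed by Spearman rho (0.768, adjusted permutation p = 0.00534). Of 204 alternative values of named members, 184 kept direction and side of the threshold. Why these values moved was not tested, beyond fewer tumors in the subsets. Counts of CYP51A1, at most 69 per tumor, are the shallowest.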
